A study of Mus musculus with 10 samples.

Results

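Cytochrome P450 genes of the mouse kidney were followed in 5 male C57BL/6 mice under long-term calorie restriction (CR) and 5 male C57BL/6 mice on a control diet, all aged 30 months, with 1 mouse per array. A gene was taken as a member when a probe set was annotated with a single symbol made of Cyp, a number, letters and a number (Cyp1b1, for example). This gave 65 genes, carried by 87 probe sets, of 18194 named genes and 45101 probe sets on the array. Cyp2j13, Cyp4a12a, Cyp4b1, Cyp2e1, Cyp4a10, Cyp24a1 and Cyp27b1 were left out by the rule. Each gene was described by its brightest probe set over the 10 arrays. How strong the restriction was, when it began and whether the mice were fasted before collection is not stated in the sources used.

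P450 enzymes are heme proteins that insert an oxygen atom into fatty acids, steroids, vitamins and foreign compounds, with electrons handed over by partner proteins. In the kidney they are concentrated in the proximal tubule, where the Cyp4a enzymes hydroxylate fatty acids and arachidonic acid and the Cyp2c and Cyp2j enzymes turn arachidonic acid into epoxides, lipid mediators that act on vessels and on salt transport. The family is better known for the liver, where the Cyp1, Cyp2 and Cyp3 enzymes clear drugs, Cyp7a1 and Cyp8b1 make bile acids, and for the adrenal cortex, where the Cyp11, Cyp17 and Cyp21 enzymes make steroid hormones.

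Many genes of the family were dim in these kidneys. Of the 65 genes, 33 had a mean log2 signal below 6.81, the median of all probe sets on the array, and are called near background here. By construction 50% of probe sets lie below that median. Of all 18194 named genes, 12196 lay at or above it by their brightest probe set. Of these 33, the highest mean signal was 122 units. Olfactory receptor genes, most of which are silent outside the nose, gave a second yardstick. The 95th percentile of the mean log2 signal of 39 such genes was 7.17, and 36 of the 65 P450 genes lay below it. At the other end, 9 genes stood above 1000 units on every array, namely Cyp4a14, Cyp2j5, Cyp2d26, Cyp4a31, Cyp2d9, Cyp2j11, Cyp2d12, Cyp2c23 and Cyp27a1. The 10 brightest genes held 84.4% to 88.5% of the summed signal of the 65 genes on every array. Signals of different probe sets are not levels per length of transcript, so this order describes brightness on the array.

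**Figure D1:**
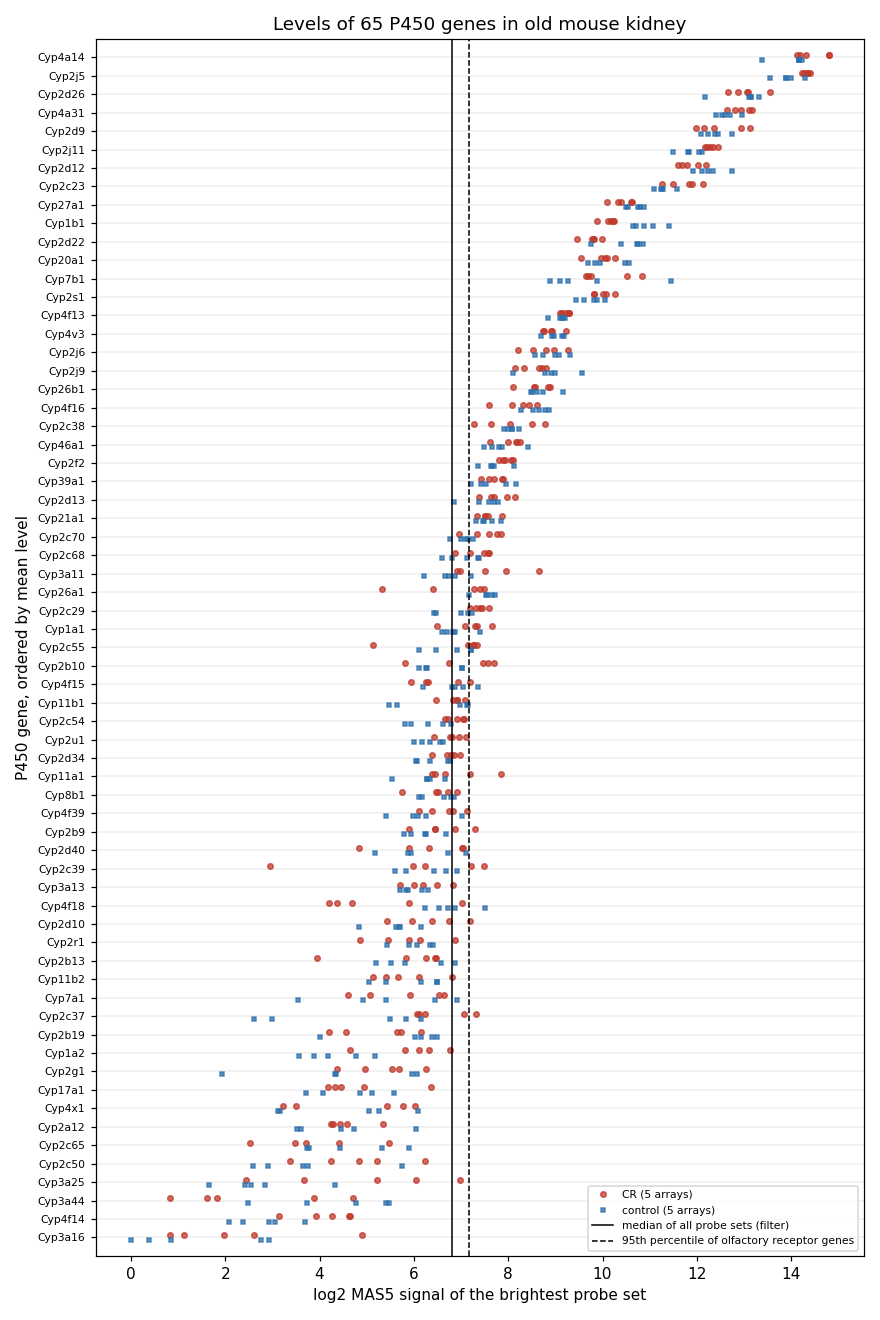
Log2 MAS5 signal of the brightest probe set of 65 P450 genes on 5 CR arrays (circles) and 5 control arrays (squares), ordered by mean level. The solid line is the median of all probe sets, 6.81, below which 33 genes lie, and the dashed line is the 95th percentile of olfactory receptor genes, 7.17.

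The Cyp2a, Cyp2b, Cyp2g, Cyp2r, Cyp2u, Cyp4x, Cyp7a, Cyp8b, Cyp11a, Cyp11b and Cyp17a subfamilies were near background in all their members, and so was the Cyp3a subfamily but for Cyp3a11. The Cyp2b subfamily, phenobarbital-inducible enzymes of the liver, had mean signals of 54.2 to 122 units over its 4 genes. Cyp3a13, Cyp3a16, Cyp3a25 and Cyp3a44 had means between 6.16 and 71.2 units, and Cyp3a11, a main drug-metabolizing enzyme of mouse liver, had 163. Just inside the limit lay Cyp1a1, with a mean log2 signal of 7.024, and just outside it Cyp2c55, with 6.805. In the Cyp2c subfamily 6 of 11 genes were near background (Cyp2c37, Cyp2c39, Cyp2c50, Cyp2c54, Cyp2c55 and Cyp2c65). In the Cyp4f subfamily, enzymes of fatty acid and leukotriene hydroxylation, 4 of 6 were (Cyp4f14, Cyp4f15, Cyp4f18 and Cyp4f39), and in the Cyp2d subfamily 3 of 8 (Cyp2d10, Cyp2d34 and Cyp2d40). Cyp1a2, the liver enzyme of caffeine breakdown, had a mean of 44.8 units. None of these 33 genes was tested between the diets, because signals this low were taken as near background, and the 2 diets overlapped in all 33.

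Between the diets, 32 genes were bright enough to test. Cyp2j5 and Cyp2j11 were higher and Cyp1b1 and Cyp2d22 lower in CR kidney, and the other 28 did not pass an adjusted p of 0.05 in limma's test over all probe sets. The 4 that passed are 12.5% of the tested P450 genes. Over all 12196 tested genes, each by its brightest probe set, 6.10% passed in either direction, 3.08% higher and 3.02% lower. Counted by probe set, 6.09% of 22519 passed. At an unadjusted p under 0.05 there were 13 of 32 P450 genes, against 26.4% of all genes. The median difference over the 32 genes was 0.13 on the log2 scale, with a median of -0.0052 over all tested genes, and 20 genes were above and 12 below 0. That median was 0.029 after median centring of the arrays, 0.0029 with the 3' to 5' end ratio of control transcripts (described next) in the fit, 0.0042 with CR replicates 4 and 5 against all controls and -0.033 in replicates 4 and 5 of each diet alone. The diets did not overlap in 2 of the 32, Cyp2j11 and Cyp1b1, and in 7.49% of all tested genes.

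The arrays differed in ways that touch these comparisons. For Gapdh and Actb the array carries probe sets at both transcript ends, and the log2 ratio of the 3' end over the 5' end, a sign of RNA length and labelling, was 1.67 ± 0.46 in CR and 1.05 ± 0.26 in control (SD, n = 5, 2-sided exact permutation p = 0.0476). Without CR replicate 1, 2 or 3 that p was 0.0714, and without control replicate 1, 2 or 3 it was 0.0794. CR replicates 1, 2 and 3 stood at 2.21, 2.01 and 1.75, while CR replicates 4 and 5, at 1.24 and 1.16, lay within the control range of 0.76 to 1.39. The difference between the diets also changed with brightness. Among the 201 tested probe sets closest in level to Cyp4a14 its median was 0.23 on the log2 scale, and such medians are given beside some genes below. What sets them was not tested. An effect of brightness and one of diet on the genes that are bright in kidney cannot be told apart. Median signals of the arrays were 115 to 136 units, and Spearman's rho between arrays of one diet was 0.926 to 0.951.

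**Figure D2:**
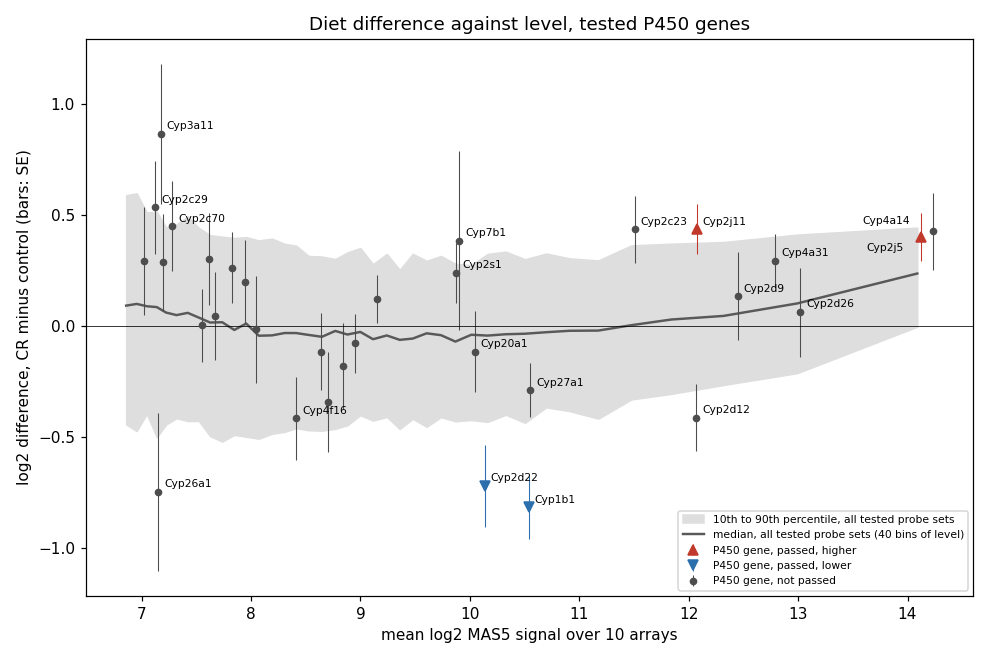
Log2 difference, CR minus control, against mean log2 signal for the 32 tested P450 genes with standard errors, over the median (line) and the 10th to 90th percentile (band) of all tested probe sets in 40 bins of level. The line climbs at the bright end, where Cyp2j5 and Cyp4a14 lie, while Cyp1b1 and Cyp2d22 lie below the band.

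The sequences just upstream of 4 genes are shown because 3 of them passed the test and the other, Cyp2j6, is the brighter of the 2 neighbours in the Cyp2j gene cluster that did not. They come from RefSeq, build GRCm38.p6, and run from 250 bases before to 50 bases after the start of transcription. Such an entry was found for 47 of the 65 genes. Capitals mark matches, on either strand, to TATAAA (the TATA box), TGTTCT (the half-site of androgen and glucocorticoid receptors), AGGTCA (the half-site of other nuclear receptors), GTTAAT (a half-site of HNF1 factors) and GCGTG (the core bound by the aryl hydrocarbon receptor).
Cyp2j5, chr4:96664070-96664369, minus strand: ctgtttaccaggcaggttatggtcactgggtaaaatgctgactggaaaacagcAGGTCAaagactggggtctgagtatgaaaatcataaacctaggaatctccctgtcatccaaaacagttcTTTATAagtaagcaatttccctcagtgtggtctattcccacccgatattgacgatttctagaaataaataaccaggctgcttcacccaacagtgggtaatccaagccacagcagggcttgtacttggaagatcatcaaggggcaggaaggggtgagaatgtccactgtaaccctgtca
Cyp2j11, chr4:96348631-96348930, minus strand: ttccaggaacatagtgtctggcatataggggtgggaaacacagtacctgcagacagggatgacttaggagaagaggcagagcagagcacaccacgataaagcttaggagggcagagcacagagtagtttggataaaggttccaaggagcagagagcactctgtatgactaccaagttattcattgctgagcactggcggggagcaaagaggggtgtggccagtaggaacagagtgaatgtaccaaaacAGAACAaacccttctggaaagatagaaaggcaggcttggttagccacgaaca
Cyp2j6, chr4:96553602-96553901, minus strand: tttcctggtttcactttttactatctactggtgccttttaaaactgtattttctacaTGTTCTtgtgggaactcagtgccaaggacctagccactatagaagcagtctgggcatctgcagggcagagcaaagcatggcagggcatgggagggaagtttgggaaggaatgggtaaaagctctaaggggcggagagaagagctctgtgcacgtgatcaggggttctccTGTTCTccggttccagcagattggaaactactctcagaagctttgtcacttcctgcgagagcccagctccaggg
Cyp1b1, chr17:79715012-79715311, minus strand: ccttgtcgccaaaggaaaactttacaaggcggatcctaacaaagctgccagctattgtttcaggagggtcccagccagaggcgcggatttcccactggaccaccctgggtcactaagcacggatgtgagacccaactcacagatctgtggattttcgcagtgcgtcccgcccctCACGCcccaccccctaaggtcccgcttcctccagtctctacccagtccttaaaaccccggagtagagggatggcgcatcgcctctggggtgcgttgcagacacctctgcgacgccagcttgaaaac

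In these windows Cyp2j5 held 1 AGGTCA and 1 TATAAA on the opposite strand, Cyp2j11 held 1 TGTTCT on the opposite strand, and Cyp2j6 held 2 TGTTCT. Cyp1b1, a classical target of the aryl hydrocarbon receptor, held 1 GCGTG on the opposite strand, beginning 76 bases before the start. Its window was also richer in CpG, with 16, than those of Cyp2j5, Cyp2j11 and Cyp2j6, with 2, 3 and 4. Such short matches are common. Of 32851 promoters in the table, 13.6% held TATAAA, 19% TGTTCT, 16.3% AGGTCA, 7.1% GTTAAT and 32.4% GCGTG. The 53 entries of P450 genes held them in 37.7%, 24.5%, 26.4%, 5.66% and 22.6%. A match is a description of the letters only.

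The Cyp2c, Cyp2j, Cyp2u and Cyp4 genes were grouped, by subfamily, as genes of fatty acid and arachidonate metabolism. Of these 26 genes 14 were tested, of which 2 rose and 0 fell (8 had an unadjusted p under 0.05), with a median difference of 0.29. Of all tested genes 3.08% were higher, 3.02% lower and 26.4% under an unadjusted p of 0.05, with a median of -0.0052. Probe sets as bright as Cyp4a14, the brightest of the group, had a median of 0.23. Both group members that rose belong to the Cyp2j subfamily. Cyp2j5, an arachidonic acid epoxygenase abundant in mouse kidney, had signals of 19879, 21692, 20893, 20826 and 19307 in CR replicates 1 to 5 and 20120, 16285, 15197, 12007 and 15136 in control replicates 1 to 5. All CR arrays stood above control replicates 2 to 5, and control replicate 1 lay among the CR values. The means were 20519 ± 934 in CR and 15749 ± 2919 in control (SD, n = 5 each), a log2 difference of 0.40 ± 0.11 (SE, adjusted p = 0.0464). Without control replicate 1 the difference was 0.49 (adjusted p = 0.0125). A second Cyp2j5 probe set, dimmer, averaged 2890 in CR and 1826 in control, a log2 difference of 0.73 ± 0.22 that did not pass (adjusted p = 0.06).

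Cyp2j11, a close relative of Cyp2j5, had signals of 5600, 5200, 4939, 4652 and 4723 in CR and 4399, 4238, 3573, 2882 and 3645 in control. Every CR array stood above every control array. The means were 5023 ± 387 in CR and 3748 ± 603 in control, a log2 difference of 0.43 ± 0.11 (adjusted p = 0.0405). Probe sets as bright as Cyp2j11 had a median difference of 0.02 and those as bright as Cyp2j5 one of 0.23. After quantile normalization, which levels the brightness of the arrays, the difference was 0.41 for Cyp2j11 (adjusted p = 0.0549) and 0.16 for Cyp2j5 (adjusted p = 0.422). Both calls were lost there. Leaving out 1 array kept the call in 2 of 10 cases for Cyp2j5 (without CR replicate 5 or control replicate 1) and in 3 of 10 for Cyp2j11 (these and CR replicate 4). Over all 23 alternatives Cyp2j5 passed in 6 and Cyp2j11 in 7.

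The protein-coding Cyp2j genes lie on chromosome 4 in the order Cyp2j13, Cyp2j12, Cyp2j11, Cyp2j8, Cyp2j6, Cyp2j9 and Cyp2j5. Cyp2j6 and Cyp2j9, between the 2 that rose, had means of 445 ± 123 and 375 ± 68.9 in CR and 498 ± 99.4 and 493 ± 174 in control. Their log2 differences were -0.18 ± 0.19 and -0.34 ± 0.22, and neither passed. A second tested Cyp2j6 probe set gave 0.01 ± 0.13. 

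**Figure D3:**
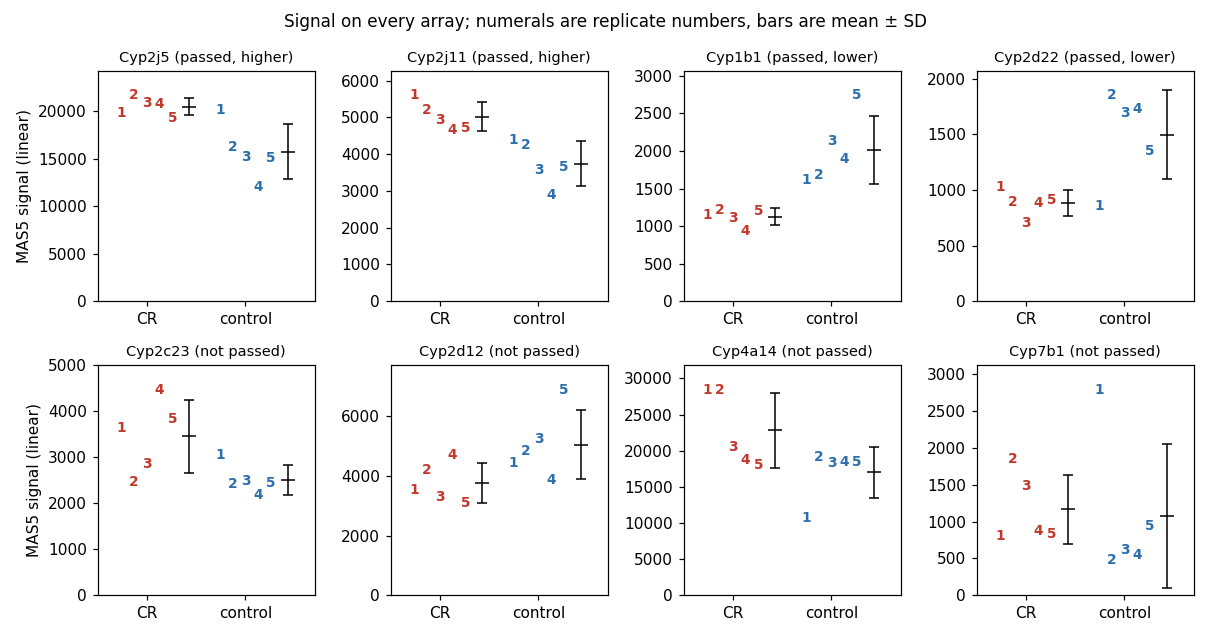
MAS5 signal on a linear axis from 0 for 8 P450 genes, with CR left of control in each panel. Each numeral is one array, named by its replicate number, and the bars are mean ± SD. Cyp2j11 and Cyp1b1 do not overlap between the diets, and control replicate 1 stands apart from the other controls for Cyp4a14, Cyp7b1 and Cyp2d22.

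The Cyp4a enzymes, omega-hydroxylases of fatty acids and targets of the lipid-sensing receptor PPAR alpha, included the brightest of the 65 genes. Cyp4a14 had signals of 28434, 28425, 20501, 18656 and 17984 in CR and 10660, 19122, 18294, 18504 and 18428 in control. CR replicates 1 and 2 were high, CR replicates 3 to 5 lay close to control replicates 2 to 5, and control replicate 1 was low. The log2 difference of 0.43 ± 0.17 did not pass (adjusted p = 0.138), and it was -0.01 in replicates 4 and 5 of each diet alone. Cyp4a31 averaged 7924 ± 1170.4 in CR and 6461 ± 976 in control by its brightest probe set, a log2 difference of 0.29 ± 0.12 that did not pass (adjusted p = 0.142). Its other probe set went the other way. It averaged 904 in CR and 1280 in control and was lower in CR by the test, with a log2 difference of -0.50 ± 0.12 (adjusted p = 0.0276). The 2 probe sets disagree in direction, so none is given for Cyp4a31.

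Of the Cyp2c genes, 5 were tested and 0 passed (3 at an unadjusted p under 0.05, and 1 in limma on replicates 4 and 5 alone). Cyp2c23, an arachidonic acid epoxygenase of mouse kidney also called Cyp2c44, had signals of 3645, 2455, 2867, 4471 and 3841 in CR and 3058, 2414, 2476, 2172 and 2452 in control. CR replicates 1, 4 and 5 stood above all controls and the other 2 lay among them. The log2 difference of 0.44 ± 0.15 did not pass (adjusted p = 0.0909). In replicates 4 and 5 of each diet alone, whose 3' to 5' ratios were alike, it was 0.84 and passed (adjusted p = 0.0302). The liver marker Alb was also highest on CR replicates 4, 5 and 1, with 3747, 1697 and 1435 units, against a control mean of 523. Apoa1 was highest on CR replicate 4 too, while the liver markers Ttr, Apoc3, Apob and Fgb were highest on other arrays. The part of liver transcripts in the Cyp2c23 values was not tested. Cyp2c29, Cyp2c68 and Cyp2c70 were close to background, with mean signals of 119 to 186 units in either diet and log2 differences of 0.53, 0.29 and 0.45 that did not pass. Cyp2c38 differed by -0.02 ± 0.24.

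The other fatty acid hydroxylases measured were Cyp4f13, Cyp4f16 and Cyp4v3. Cyp4f13 averaged 593 ± 38.6 in CR and 546 ± 49.6 in control (log2 difference 0.12 ± 0.11), and Cyp4v3 485 ± 70 in CR and 512 ± 66.2 in control (-0.08 ± 0.13). Cyp4f16 averaged 303 ± 75 in CR and 398 ± 62.4 in control, a log2 difference of -0.42 ± 0.19, while its other tested probe set gave 0.12 ± 0.17. None of the 3 passed.

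Of 12 proximal tubule markers 8 passed, all higher in CR (Slc34a1, Slc5a2, Slc22a6, Kap, Miox, Fbp1, Acsm2 and Ttc36), beside 3.08% of all tested genes. This and the other marker lists were chosen with earlier results of these data known, so such shares are no test of them. Many of these 12 markers are as bright as Cyp2j5 or brighter. Miox differed by 0.31, Fbp1 by 0.37 and Slc34a1 by 0.39, where equally bright probe sets had a median of 0.30, and Kap, at that same level, differed by 0.74. Lrp2, Cubn, Slc22a8 and Slc7a13 did not pass. Over the 12 markers the summed signal was 229380 to 262030 units on CR arrays and 151190 to 193110 on control arrays. Their part in the differences of Cyp2j5 and Cyp2j11 was not tested. In whole kidney, more cells of a type and more RNA per cell cannot be told apart.

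Of 24 enzymes of foreign compounds 10 were tested, of which 0 rose and 2 fell (4 had an unadjusted p under 0.05), with a median difference of 0.19. The shares over all tested genes were 3.08% higher, 3.02% lower and 26.4% under an unadjusted p of 0.05, with a median of -0.0052. Probe sets as dim as Cyp3a11 and Cyp1a1, both above 0 in this group, had median differences of 0.08 and 0.09. Cyp1b1 had the smallest adjusted p of the 32 tested P450 genes, which do not include those left out by the rule. Cyp1b1 hydroxylates estrogens, retinoids and procarcinogens and is known mainly from stromal and vascular cells rather than hepatocytes. Its signals were 1154, 1213, 1113, 939 and 1203 in CR and 1610, 1675, 2139, 1895 and 2740 in control. Every CR array stood below every control array. The means were 1124 ± 111 in CR and 2012 ± 457 in control (SD, n = 5 each), a log2 difference of -0.82 ± 0.14 (SE, adjusted p = 0.0152). A second probe set of Cyp1b1 also passed, with 157 in CR and 286 in control and a log2 difference of -0.86 ± 0.20 (adjusted p = 0.0303), and the remaining one was near background.

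The Cyp1b1 fall passed in 19 of 23 alternative settings and without each single array, and its log2 difference ran from -1.10 to -0.60. It did not pass with the 3' to 5' ratio added to the fit (-0.98, adjusted p = 0.0763), in replicates 4 and 5 of each diet alone (-1.10, adjusted p = 0.0559), with CR replicates 4 and 5 against all controls (-0.89, adjusted p = 0.231) or by the mean of its 3 probe sets (-0.60, adjusted p = 0.147). Some markers of stromal, immune and fat cells were lower in CR too, where 3.02% of all tested genes passed as lower. Of 5 fibroblast and smooth muscle markers 1 passed, Pdgfra at -0.95 ± 0.17, while Acta2 (0.14 ± 0.12) and Col1a1 (0.10 ± 0.25) did not pass, and their summed signal was 9254 to 10803 in CR and 9707 to 14028 in control. Of 4 endothelial markers 0 passed in limma (2 at an unadjusted p under 0.05), with sums of 2184 to 3453 in CR and 3228 to 3776 in control, and of 6 macrophage markers 2 passed, both lower (Mpeg1 and Ctss), with sums of 11603 to 16170 in CR and 13844 to 24044 in control. The sums overlapped between the diets for these 3 lists. Of 3 adipocyte markers 1 passed, also lower (Fabp4), with sums of 6188 to 11440 in CR and 12872 to 18152 in control. Their part in the Cyp1b1 difference was not tested. The related Cyp1a1, the most inducible target of the aryl hydrocarbon receptor, was close to background, with 149 ± 41.1 in CR and 120 ± 28.4 in control, and the difference of 0.29 ± 0.24 did not pass.

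Cyp2d22, often regarded as the mouse counterpart of human CYP2D6, was the other gene that fell. Its signals were 1022, 895, 702, 880 and 909 in CR and 858, 1850, 1692, 1724 and 1353 in control. All CR arrays stood below control replicates 2 to 5, and control replicate 1 lay among the CR arrays. The means were 882 ± 115 in CR and 1495 ± 401 in control, a log2 difference of -0.72 ± 0.19 (adjusted p = 0.0391). Without control replicate 1 it was -0.91 (adjusted p = 0.00473). The call was kept in 3 of 10 fits that left out an array (CR replicate 4, CR replicate 5 or control replicate 1), it passed in 8 of 23 alternatives in all, and the second Cyp2d22 probe set gave -0.49 ± 0.18 (adjusted p = 0.107).

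The other 4 tested Cyp2d genes did not pass. Cyp2d26 averaged 8646 ± 2080 in CR and 8394 ± 2171 in control, a log2 difference of 0.06 ± 0.20. Cyp2d9, a testosterone hydroxylase typical of male mouse liver, averaged 6126 ± 2134 in CR and 5391 ± 946 in control (0.13 ± 0.20, and -0.29 with the 3' to 5' ratio added to the fit). CR replicates 1 and 2, with 7854 and 8904 units of Cyp2d9, stood above every control. Cyp2d12 averaged 3764 ± 674 in CR and 5049 ± 1144 in control, a log2 difference of -0.41 ± 0.15 that did not pass (adjusted p = 0.106). It was below 0 in all 23 alternative settings, at -0.51 to -0.30, but these share most arrays and some, such as the filters, cannot change the difference. Cyp2d13 was dim, at 221 and 181 units in CR and control, with a log2 difference of 0.30 ± 0.21. In RefSeq's gene order Cyp2d22 and Cyp2d26 stand at opposite ends of the Cyp2d genes. The Cyp2d9, Cyp2c23, Cyp7b1, Cyp4v3, Cyp2f2 and Cyp1a1 values come from probe sets whose names end in a_at or s_at, which can bind several transcripts.

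Of the remaining enzymes of foreign compounds, Cyp2s1 averaged 1029 ± 138 in CR and 875 ± 140 in control (log2 difference 0.24 ± 0.13) and Cyp2f2, the naphthalene-activating enzyme of airway club cells, 249 ± 21.6 in CR and 211 ± 42 in control (0.26 ± 0.16). Neither passed. Cyp3a11 had 181, 126, 121, 404 and 249 units in CR and 74, 117, 148, 101 and 107 in control. Its highest values were on CR replicates 4 and 5, and the log2 difference of 0.86 ± 0.31, the largest positive difference of the 32 genes, did not pass (adjusted p = 0.104). Liver markers summed to 15329 to 19989 units in CR and 12603 to 17183 in control. Of the 6 tested 1 passed as higher, Alb, beside 3.08% of all tested genes. Alb averaged 1704 in CR and 523 in control. Ttr, the brightest of the list, differed by 0.13, Apoa1 by 1.37, Apoc3 by 0.22, Apob by 0.08 and Fgb by -0.73, and none of these 5 passed. Their part in the Cyp3a11 values was not tested.

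The Cyp7, Cyp8, Cyp26, Cyp27, Cyp39, Cyp46 and Cyp2r genes were grouped as those of sterol, bile acid, vitamin D and retinoid metabolism. They gave 0 of 6 tested genes past the threshold in limma, and 1 at an unadjusted p under 0.05, Cyp27a1. As the grouping was by subfamily, Cyp2c70 (unadjusted p = 0.0444 in limma) was counted with the Cyp2c genes, whatever its substrates. Cyp27a1, the mitochondrial sterol side-chain hydroxylase, had 1550, 1334, 1100, 1574 and 1287 units in CR and 1727, 1896, 1453, 1489 and 1776 in control. The lowest controls lay among the CR values, and the log2 difference was -0.29 ± 0.12 (adjusted p = 0.15). Cyp7b1, which hydroxylates oxysterols and androgen metabolites, had 807, 1843, 1476, 867 and 827 units in CR and 2787, 476, 614, 545 and 940 in control. Control replicate 1 was higher than any other array, and 3 of the other 4 controls lay below every CR array. The log2 difference was 0.38 ± 0.40 with all arrays and 0.82 ± 0.26 without control replicate 1 (adjusted p = 0.581 and 0.0789). A second tested Cyp7b1 probe set gave 0.10 ± 0.45.

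Of the retinoic acid hydroxylases, Cyp26b1 averaged 391 ± 79.1 in CR and 423 ± 89.1 in control (-0.12 ± 0.17). Cyp26a1 had 39.9, 84.5, 180, 169 and 154 units in CR and 188, 185, 143, 201 and 211 in control, low on CR replicates 1 and 2, for a log2 difference of -0.75 ± 0.36 (adjusted p = 0.2) that shrank to -0.05 with the 3' to 5' ratio added to the fit. Cyp46a1, the cholesterol hydroxylase known from neurons, and Cyp39a1, an oxysterol hydroxylase, differed by 0.20 ± 0.19 and 0.04 ± 0.20. Cyp7a1, Cyp8b1 and Cyp2r1, a vitamin D hydroxylase, were near background with mean signals of 60.2, 92.4 and 65.6 units. The orphan enzyme Cyp20a1 averaged 1027 ± 176 in CR and 1133 ± 315 in control (-0.12 ± 0.18), and a dimmer probe set gave 0.54 ± 0.31.

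The steroid hormone enzymes were at or near background. Cyp11a1, which cleaves the cholesterol side chain, Cyp11b1, Cyp11b2 and Cyp17a1 had mean signals of 103, 108, 63.5 and 31.5 units. Cyp21a1, an enzyme of glucocorticoid and mineralocorticoid synthesis, was the one tested, at 190 ± 26.4 in CR and 190 ± 27 in control (0.00 ± 0.16). Adrenal markers were low too, with 6 of 9 below the filter and a summed signal of 972 to 1293 units in CR and 732 to 1137 in control. The cholesterol carrier Star averaged 267 in CR and 137 in control and did not pass (adjusted p = 0.0523). It had the largest difference of the tested adrenal markers, 0.99, and Dbh and Pnmt differed by 0.27 each without passing. Of the 6 below the filter, Mc2r, Mrap and Hsd3b1 averaged lower in CR than in control, and Nr5a1, Th and Chga higher.

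**Figure D4:**
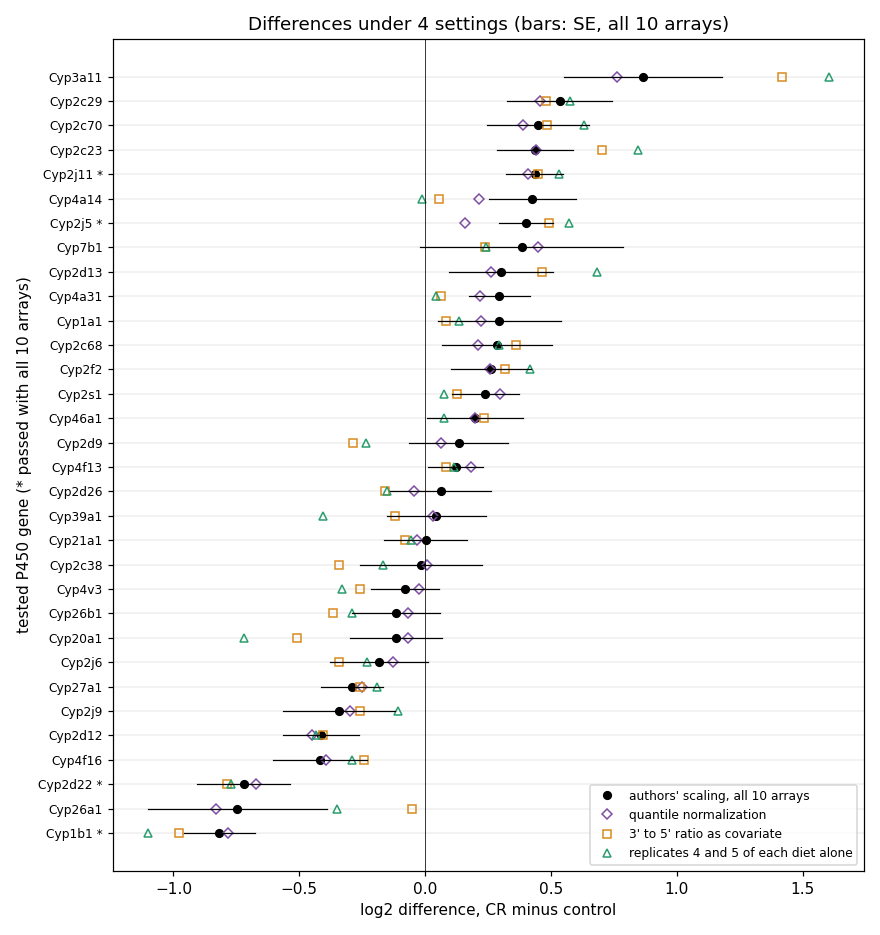
Log2 difference, CR minus control, of the 32 tested P450 genes with all 10 arrays (filled circles with standard errors), after quantile normalization, with the 3' to 5' ratio added to the fit and in replicates 4 and 5 of each diet alone. Cyp1b1 and Cyp2d22 lie below 0 and Cyp2j11 above 0 in all 4 settings, whereas Cyp4a14 moves to -0.01 in replicates 4 and 5. In the 3 alternatives shown, Cyp2d22, Cyp2j11 and Cyp2j5 passed in 0 and Cyp1b1 in 1, quantile normalization.

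P450 enzymes need electrons, heme and transcription factors, and 33 such genes were listed, of which 27 were found by symbol and 25 were bright enough to test. Of these 25, 6 rose and 0 fell in limma, and 10 had an unadjusted p under 0.05, 2 of them (Pgrmc1 and Alas1) with a difference below 0. Over all tested genes 3.08% were higher, and 26.4% had an unadjusted p under 0.05. The partner list was chosen with earlier results of these data known, so these shares are no test of it. The 6 calls fell to 0 without a filter, with eBayes without trend, with the replicate block and with the 3' to 5' ratio added to the fit, and to 2 after quantile normalization. The median difference of the 25 tested partner genes was 0.15, beside -0.0052 for all tested genes. Of 9 listed genes of electron supply and partners 6 were found and tested, and 3 of these rose. Por, Fdx2 and Fdxr were not found by symbol, so nothing is said of them. Cyb5a, microsomal cytochrome b5, averaged 25872 ± 1288 in CR and 19920 ± 1269 in control (0.38 ± 0.07, adjusted p = 0.0167). Cyb5b, its mitochondrial outer membrane form, averaged 6462 ± 505 in CR and 5078 ± 553 in control (0.35 ± 0.09, adjusted p = 0.0431). Fdx1, the ferredoxin that serves mitochondrial P450 enzymes such as Cyp27a1, averaged 9104 ± 418 in CR and 7138 ± 950 in control (0.36 ± 0.09, adjusted p = 0.0418). In all 3 every CR array stood above every control array. Over all tested genes the diets did not overlap in 7.49%, in either direction. Probe sets as bright as Cyb5a had a median difference of 0.29, and after quantile normalization Cyb5a differed by 0.10. Pgrmc1, a heme-binding partner of P450 enzymes, differed by -0.20 ± 0.08 and Cyb5r3, cytochrome b5 reductase, by 0.26 ± 0.10, and neither passed.

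Of 9 genes of heme synthesis and breakdown 1 rose, beside 3.08% of all tested genes. It was coproporphyrinogen oxidase Cpox, with 2009 ± 320 in CR and 1399 ± 264 in control (0.53 ± 0.14, adjusted p = 0.0475). Uros differed by 0.41 ± 0.13 (adjusted p = 0.0746), and Alas1, the rate-limiting enzyme of heme synthesis in most tissues, by -0.30 ± 0.13, without passing. Of 8 tested receptors and factors 1 rose, beside the same 3.08%. It was Hnf4a, a nuclear receptor of proximal tubule and liver, with 12022 ± 1157 in CR and 9209 ± 1205 in control (0.39 ± 0.10, adjusted p = 0.0388). By the mean of its 4 probe sets Hnf4a differed by -0.06. The aryl hydrocarbon receptor Ahr had 412, 359, 357, 292 and 367 units in CR and 288, 433, 458, 462 and 591 in control, with control replicate 1 as the lowest array of all (-0.29 ± 0.17, adjusted p = 0.299). Arnt, its partner, differed by -0.24 ± 0.13, and the nuclear receptors Rxra and Nr1h4 by 0.34 ± 0.17 and 0.24 ± 0.13, and none of the 3 passed.

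Ephx2, the soluble epoxide hydrolase that breaks down the epoxides made by Cyp2j and Cyp2c enzymes, rose. Its signals were 8696, 7952, 8794, 7535 and 7455 in CR and 7565, 5356, 5380, 3805 and 4874 in control. Only control replicate 1 reached the CR range. The log2 difference was 0.62 ± 0.14 (adjusted p = 0.0286), 0.55 after quantile normalization and 0.80 in replicates 4 and 5 of each diet alone, where it also passed. Ephx1, the microsomal epoxide hydrolase, differed by 0.13 ± 0.10 and did not pass. Of the 6 partner genes that rose, Cyb5a kept its call without each single array, and Cyb5b, Fdx1, Cpox, Hnf4a and Ephx2 kept it in 3, 2, 1, 4 and 3 of 10 such fits.

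**Figure D5:**
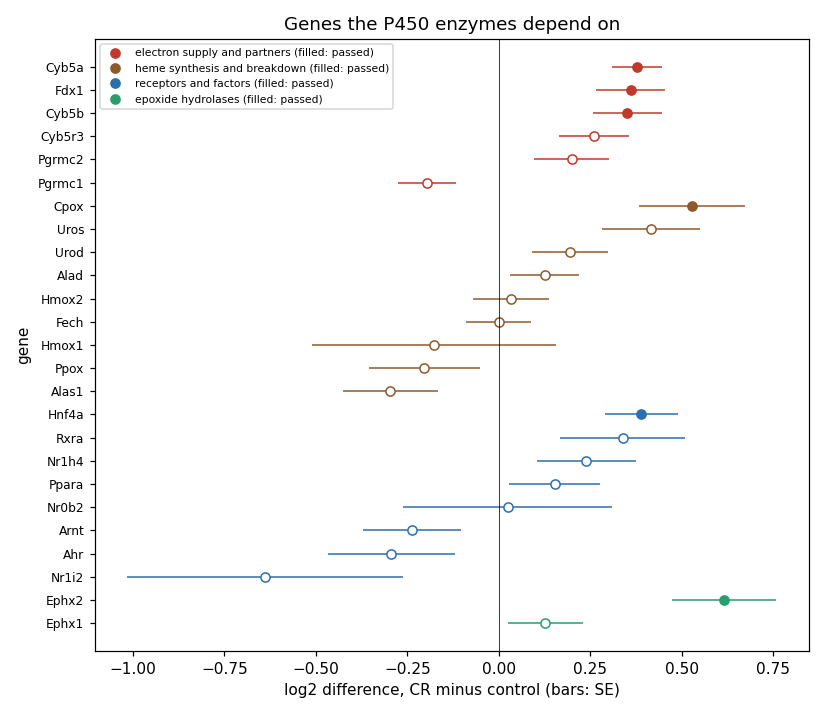
Log2 difference, CR minus control, with standard errors for 25 tested genes that supply P450 enzymes with electrons or heme, set their transcription or remove their epoxide products. Filled points passed the threshold, and all 6 of them lie above 0.

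Control replicate 1 was at an extreme for many members. It was the highest or the lowest control for 18 of the 32 tested P450 genes, 56.2%, against 40.6% of all tested genes. The other 4 control arrays were at an extreme for 28.1% to 40.6% of the P450 genes. It carried the highest control values of Cyp2j5, Cyp2j11, Cyp2d9, Cyp2c23 and Cyp7b1 and the lowest of Cyp4a14, Cyp2d26 and Cyp2d22. Its 3' to 5' ratio, 0.91, lay within the range of the other controls.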

How the data were processed

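Per the submitters' processing notes, the authors made the deposited intensity values, 1 linear signal per probe set, with MAS5 in Affymetrix Expression Console. On each array they averaged 500 once 2% of probe sets at either end were trimmed. Per the labels' protocols, biotin-labelled cRNA came from 5 ug of total RNA extracted with Trizol. Detection calls and array backgrounds were not used here, and 5 arrays per diet limit the precision.

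From these intensity values, signals below 1 were set to 1 and log2 was taken. Probe sets with a mean log2 signal at or above 6.81 were tested (22519, without 64 controls). CR minus control was fitted with limma 3.58.1 in R 4.3.3 (lmFit, eBayes with trend, 2-sided), Benjamini-Hochberg adjusted over all tested probe sets, with a threshold of 0.05. Every difference is on the log2 scale with limma's standard error. The fit was tested on simulated data.

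Symbols came from the platform annotation: 34958 probe sets had 1, 932 several and 9211 none. RefSeq gene IDs changed 0 symbols. Near-identical P450 genes can share probes.

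The members, lists and tests were chosen with earlier results of these data known. Named were all genes past the threshold or without overlap, the brightest and the smallest p in each tested subfamily, all genes of sterol, vitamin and steroid families, markers that passed, and in partner groups those past the threshold and up to 2 more. Ahr, Arnt, Star, Cyp2j6, Cyp2j9, Cyp2c29, Cyp2c68, Cyp2c70, Cyp2c38, Cyp2d12 and Cyp2d13 beyond that rule, and the local medians by brightness, were chosen after their values were seen. Same-numbered replicates of the diets had correlations of deviations between -0.141 and -0.087. These show no likeness of same-numbered arrays, but they cannot exclude that the mice were matched by number. Alternatives are listed in the closing section.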

Additional observations from a re-analysis of the deposited data

Results flagged for a closer look

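Within a diet, 64 sets of 5 arrays (32 genes, 2 diets) were searched for an array far from the other 4, by the gap to its neighbour relative to the range in log2. Chance alone would mark about 5% of such sets. The search marked 2 of 64, which is no more than that share, both in control replicate 1. Cyp4a14 had 10660 units on that array, against 18294 to 19122 on the other controls. Cyp2d26 had 4642.5 units there, against 8828 to 10281.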

How the results depend on the processing

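Each of the 4 P450 calls was lost in some settings. Of 23 alternatives, Cyp1b1 passed in 19, Cyp2d22 in 8, Cyp2j11 in 7 and Cyp2j5 in 6. The diets had 2 genes higher and 2 lower, 6 partner genes higher and a median difference of 0.13. Without a filter, with eBayes without trend and with the replicate block, the counts were 0 higher, 1 lower and 0 partners. With quantile normalization they were 0, 1 and 2, and with averaged probe sets per gene 0, 0 and 2. Median centring gave 0 higher and 2 partners, with a median of 0.029. The 3' to 5' covariate gave 0, 0 and 0 (median 0.0029, 9 calls over all probe sets), and CR replicates 4 and 5 against all controls 0, 0 and 0 (median 0.0042, 1 call over all). Replicates 4 and 5 of each diet alone gave 1 (Cyp2c23), 0 and 1 (Ephx2), with a median of -0.033. Leaving out 1 array gave 0 to 2 higher, 1 to 2 lower, 1 to 6 partners and a median of 0.078 to 0.17, and a difference in 3' to 5' ratio of 0.49 to 0.75 (exact permutation p 0.0397 to 0.0794). Of the 6 partner calls Hnf4a reversed, to -0.0595, by the mean of its probe sets. Whether the replicate numbers pair mice is not known here, and 127 probe sets in all passed with the replicate block, of 1371 without it. By the olfactory receptor yardstick 36 in place of 33 genes were near background. The stricter filter, log2(signal + 50), the robust fit and array weights left the 4 P450 calls as they were. Of 28 uncalled P450 genes, 18 kept their direction in all alternatives and 10 changed sign in at least 1. Some alternatives, such as the filters, cannot change a difference, and most share arrays. The cause of the lost calls was not tested.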
